A study of Homo sapiens with 8 samples.

Results

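The 51 genes described here encode the machinery that copies DNA in S phase, from the proteins that load the replicative helicase at origins to the polymerases, the sliding clamp and the enzyme that makes deoxyribonucleotides. They were taken by name from a genome-wide guide table of 19114 genes, and all 51 were found there, with 204 guides. The genes were chosen for the step of replication they serve, with earlier results of these data known. Of the 204 guides, 203 passed the filter on low counts, so that 50 genes kept 4 guides and FEN1 kept 3. The guide tables hold no guide sequences, so guides could not be placed within exons, and positions given below are those of whole genes in GENCODE release 44 on the hg38 build.

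The measurement was made in AsPC-1, an established human cell line of pancreatic ductal adenocarcinoma, expressing Cas9 and infected with the genome-wide Brunello guide library. On day 8 the pool was fixed in methanol, stained for Serpin B5, a serpin encoded by SERPINB5 that served as a readout of the transcription factor KLF5, and sorted into a Serpin B5-low, a Serpin B5-bulk and a Serpin B5-high bin. Every bin was 1 library from the same pool, with 102155005 counts in low, 96310376 in bulk and 90421905 in high, so no value below has a replicate library and no significance test was possible. Most cells went into the bulk bin, and the low and high bins were the tails on either side.

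The gene score is the mean over a gene's guides of the log2 ratio of normalized counts between bins, after adding 5 to each count, and its error is the SD over guides, which share a target and are not replicates of the sort. A positive low versus high score means that cells carrying those guides were more frequent in the Serpin B5-low than in the Serpin B5-high bin. A gene was called when its score was at least 1, a 2-fold difference, and all its guides had the same sign. As a check of the readout, the scores of SERPINB5 and KLF5 were 7.08 ± 1.29 and 4.70 ± 1.19 (SD, 4 guides each), the highest and second highest of 19113 genes scored. A second screen in the same line used a library focused on transcription factors (TFs), and it carried guides to the replication genes PCNA and RPA3 only, which are described last.

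Replication starts with licensing, in which the origin recognition complex (ORC1 to ORC6), CDC6 and CDT1 load the MCM2 to MCM7 helicase onto DNA in G1, while geminin (GMNN) binds CDT1 and blocks loading once S phase has begun. The kinase CDC7 with its activator DBF4 then phosphorylates the loaded helicase, and CDC45 and the GINS complex join it to form the active helicase. Behind it, primase and polymerase alpha start each strand, polymerases epsilon and delta extend it, PCNA holds them on DNA after being loaded by the RFC complex, RPA coats single strands, and FEN1 and LIG1 seal the lagging strand.

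Guides to 3 of the 51 genes were called richer in the Serpin B5-low than in the Serpin B5-high bin, namely CDC7, GMNN and PRIM2, and none was called in the other direction. By the same rule, 1.03% of all genes tested passed toward the low bin and 0.476% toward the high bin. Most other scores were small, with a median of 0.22 over the 51 genes against 0.00 over all genes and with 40 of the 51 above 0. At a lower threshold of 1.5-fold, 7 genes were richer in low, with GINS2, TOPBP1, TIMELESS and RRM1 added to the first 3, where 2.23% of all genes passed. The steps ran from small to moderate medians, and with 1 library a bin the differences between steps were not tested. The median score was 0.35 over the 10 helicase activation genes, 0.17 over the 15 licensing genes, 0.22 over the 9 polymerase and primase genes and -0.05 over the 6 genes of the clamp and its loader. With medians over guides as gene scores, the polymerase median was 0.07 and the licensing median 0.16, so the order of those steps depends on how guides are summarised.

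**Figure D1:**
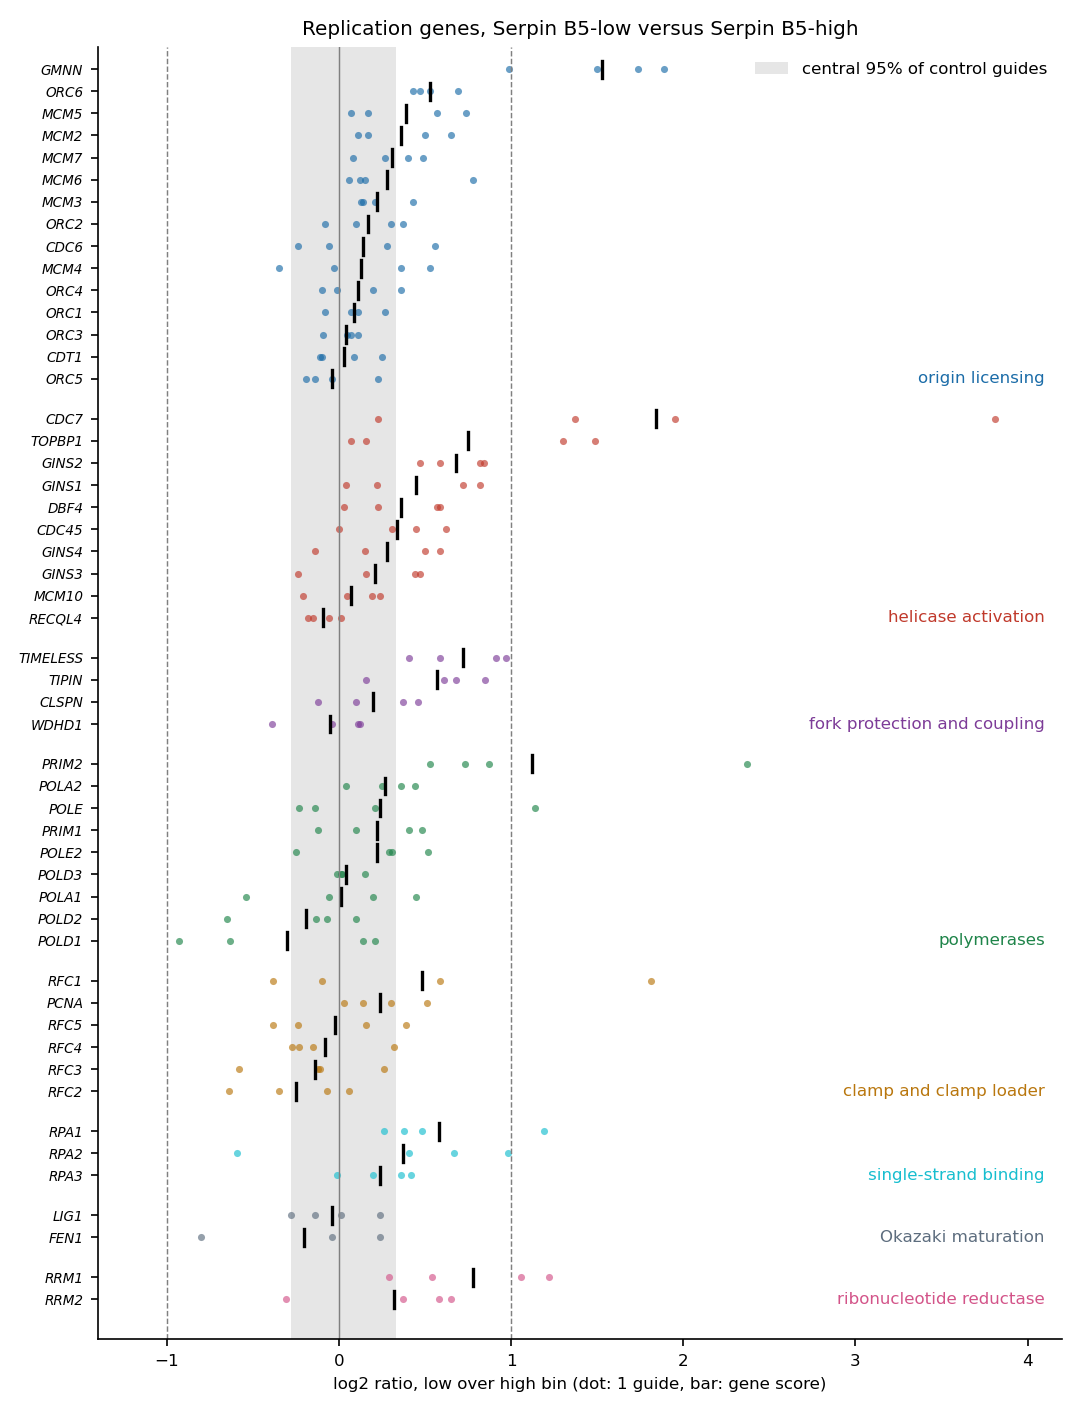
Log2 ratio of normalized counts in the Serpin B5-low over the Serpin B5-high bin for every guide (dots) and every gene score (black bars) of the 51 replication genes, ordered by score within each step; the grey band is the central 95% of 994 non-targeting guides (-0.28 to 0.33) and dashed lines mark 2-fold. CDC7 (1.84), GMNN (1.53) and PRIM2 (1.12) lie beyond 2-fold with all guides above 0, and POLD1 (-0.30) has the lowest score.

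Read abundance differed between these genes and the rest of the library and has to be read beside every ratio. The mean normalized count per guide over the 3 bins had a median of 552 over the 51 genes, against 1131 over all genes and 2358 for single non-targeting guides. In all, 46 of the 51 genes lay below the median of all genes, from RRM1 at 117 up to RECQL4 at 1949. Among the genes below that median, 1.66% were called richer in low at 2-fold and 3.25% at 1.5-fold, both above the shares over all genes. Across the 51 genes the low versus high score had a Spearman correlation of -0.41 with abundance, and the SD over guides one of -0.52, so that genes with fewer reads tended to have higher scores and a wider spread. The correlation of score with abundance was -0.49 in low versus bulk and 0.13 in high versus bulk. The part of abundance in the scores was not tested.

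Origin licensing was led by a single gene. GMNN, on chromosome 6 from 24774931 to 24786099, encodes geminin, the inhibitor of CDT1, and scored 1.53 ± 0.39 (SD, 4 guides) in low versus high. Its first guide had normalized counts of 322 in low, 227 in bulk and 93.0 in high. The second had 455, 251 and 157, the third 383, 244 and 190, and the fourth 458, 299 and 120, in the same order. All 4 guides therefore stepped down from low through bulk to high. The counting error of each guide was small beside this, with low over high ratios of 3.46 (95% exact binomial interval 2.72 to 4.43), 2.90 (2.40 to 3.51), 2.01 (1.68 to 2.41) and 3.82 (3.11 to 4.74). These intervals cover counting error only, since reads are PCR copies without molecular identifiers.

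The loading factors had lower scores than GMNN, a difference that was not tested. In low versus high, CDT1, the direct target of geminin, scored 0.03 ± 0.17, and CDC6 0.14 ± 0.36, each with 2 of 4 guides above 0. In low versus bulk they scored 0.19 ± 0.06 and 0.37 ± 0.20, each with 4 of 4 guides above 0, as did GMNN at 0.64 ± 0.15. The 6 ORC subunits ran from -0.04 ± 0.19 for ORC5 to 0.53 ± 0.11 for ORC6, the subunit least tightly bound to the rest of the complex. ORC6 stood apart from the other 5, which scored 0.17 or less, and its 4 guides lay close together, from 0.43 to 0.69. The 6 MCM helicase subunits were all above 0 and lay within a narrow span, from 0.13 ± 0.39 for MCM4 to 0.39 ± 0.32 for MCM5, and all 4 guides were above 0 in MCM2, MCM3, MCM5, MCM6 and MCM7. GMNN was the only licensing gene to pass the 1.5-fold rule in any comparison of bins.

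Helicase activation held the highest score of the 51 genes and the most genes beyond 1.5-fold. CDC7, the catalytic subunit of the kinase that fires licensed origins, lies on chromosome 1 from 91500851 to 91525764 and scored 1.84 ± 1.5 (SD, 4 guides), rank 31 of 19113. Its guides disagreed in size. The first had 79.9, 65.6 and 1.07 normalized counts in low, bulk and high, where the last value is a single read. The second had 229, 101 and 55.6, the third 221, 119 and 82.3, and the fourth 252, 213 and 215. The fourth guide was thus nearly level across the bins and the first rests on that 1 read in high, which gave a low over high ratio of 74.7 with a 95% exact binomial interval from 13.1 to 2987. The middle guides had ratios of 4.13 (3.05 to 5.68) and 2.68 (2.07 to 3.52), and the interval of the fourth, 0.973 to 1.41, included 1. Without its first guide, CDC7 scored 1.18 and was still called.

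**Figure D2:**
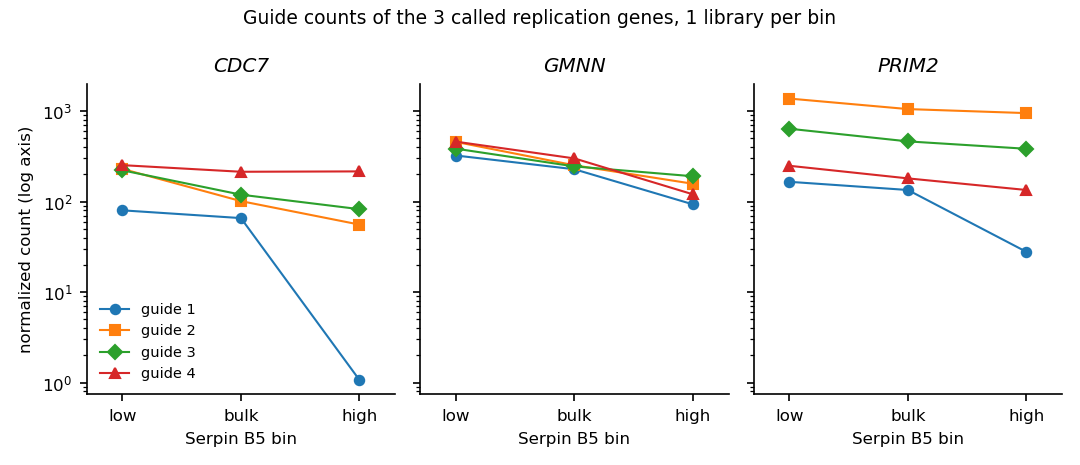
Normalized counts (log axis) of each guide of CDC7, GMNN and PRIM2 in the low, bulk and high Serpin B5 bins, 1 library per bin, with a line joining the values of a guide. All GMNN guides step down from low to high, CDC7 guide 1 drops to 1.07 in high while guide 4 stays between 213 and 252, and PRIM2 guide 1 falls to 27.8 in high.

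DBF4, the activating subunit of the same kinase, scored lower than CDC7, at 0.36 ± 0.27 with 4 of 4 guides above 0. The GINS complex has 4 subunits, and their scores were 0.45 ± 0.38 for GINS1, 0.68 ± 0.18 for GINS2, 0.21 ± 0.33 for GINS3 and 0.28 ± 0.33 for GINS4. GINS2, on chromosome 16 from 85676198 to 85690073, was the most even of these, with guide counts from 617 to 852 in low, 394 to 572 in bulk and 361 to 476 in high. All 4 GINS2 guides were higher in low than in bulk and than in high, while 1 of 4 was above 0 in high versus bulk. CDC45, which joins GINS on the helicase, scored 0.34 ± 0.27 with 3 of 4 guides above 0. TOPBP1, a scaffold needed for assembly of the active helicase and for activation of the checkpoint kinase ATR, scored 0.75 ± 0.74, and its guides fell into a pair at 1.49 and 1.30 and a pair at 0.16 and 0.07. The lowest scores of this step belonged to MCM10, at 0.07 ± 0.20, and to the helicase RECQL4, at -0.09 ± 0.09, both of which take part in the last stages of origin firing. So the 10 genes spanned nearly the whole range seen in the machinery, and the other 9 sat well under CDC7.

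At the moving fork, TIMELESS and TIPIN, which form a complex that keeps helicase and polymerase coupled, scored 0.72 ± 0.26 and 0.57 ± 0.30, both with all 4 guides above 0. TIMELESS lies on chromosome 12 from 56416363 to 56449426, and its guides had 347 to 569 normalized counts in low, 254 to 371 in bulk and 174 to 375 in high. CLSPN, the adaptor claspin that works with this complex in checkpoint signalling, was lower at 0.20 ± 0.26. WDHD1, which links the helicase to polymerase alpha, was at -0.05 ± 0.24. The partners TIMELESS and TIPIN thus lay closer to each other than to the other coupling genes, within the spread of their guides.

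Among the polymerases the primase subunit PRIM2 stood apart from the rest. PRIM2, on chromosome 6 from 57314805 to 57646850, is the regulatory subunit of the primase that lays down RNA primers, and it scored 1.12 ± 0.84 (SD, 4 guides). The first guide had 165, 134 and 27.8 normalized counts in low, bulk and high, the second 1369, 1048 and 946, the third 636, 461 and 382, and the fourth 248, 180 and 134. All 4 guides declined in the same order of bins, but the score rested on the first one, whose low over high ratio was 5.92 (95% exact binomial interval 3.91 to 9.31) against 1.45 to 1.86 for the others. With that guide left out, the score fell to 0.71 and the call was lost. PRIM1, the catalytic primase subunit, scored 0.22 ± 0.28, and the other partners in the same complex, POLA1 and POLA2, 0.01 ± 0.42 and 0.27 ± 0.18.

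Among the extending polymerases, the delta subunits scored from -0.30 to 0.04 in low versus high, and the epsilon subunits 0.22 and 0.24. POLD1, the catalytic subunit of polymerase delta, had the lowest low versus high score of the 51 genes, -0.30 ± 0.57, with counts of 229, 374, 121 and 283 in low and 357, 323, 236 and 257 in high over its 4 guides. The guides of POLD1 split evenly, 2 above and 2 below 0. The accessory subunits POLD2 and POLD3 scored -0.19 ± 0.32 and 0.04 ± 0.08. For polymerase epsilon, the catalytic subunit POLE scored 0.24 ± 0.63 and POLE2 0.22 ± 0.33. The POLE score came from 1 guide at 1.14, and the other 3 lay between -0.23 and 0.21.

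The clamp and its loader had a low versus high median close to that of all genes. PCNA, the sliding clamp, scored 0.24 ± 0.21 with 4 of 4 guides above 0. Of the RFC subunits that open and load it, RFC2, RFC3, RFC4 and RFC5 ran from -0.25 ± 0.31 to -0.02 ± 0.36, all below 0. RFC1, the large subunit, scored 0.48 ± 0.97, but its highest guide, at 1.81, had only 53, 45 and 10 raw counts in low, bulk and high, and the other 3 lay at -0.38, 0.59 and -0.10. RFC1 therefore gave no direction that its guides shared, and its score was 0.04 without that guide and -0.07 with counts summed over guides. On the lagging strand, the flap nuclease FEN1 scored -0.20 ± 0.54 over 3 guides, and the ligase LIG1 -0.04 ± 0.22.

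RPA and ribonucleotide reductase lay higher. RPA1, RPA2 and RPA3, the subunits of the single-strand binding complex, scored 0.58 ± 0.42, 0.37 ± 0.68 and 0.24 ± 0.19. RRM1, the large subunit of the reductase that makes deoxyribonucleotides, scored 0.78 ± 0.44 with all 4 guides above 0, and RRM2, the small subunit, 0.32 ± 0.44. RRM1 was also the gene with the fewest reads, and its guides had 90.3, 125, 159 and 228 normalized counts in low against 40.6, 102, 65.2 and 155 in high. Each RRM1 guide was higher in low than in high, with log2 ratios from 0.29 to 1.22 on these few reads.

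The bulk bin shows on which side of the distribution these guides were displaced. Against bulk, the low bin was richer in guides to 47 of the 51 genes, with a median score of 0.25 against 0.00 over all genes. No gene reached 2-fold in either direction, where 0.0785% of all genes passed toward low and 0% toward bulk. At 1.5-fold GMNN (0.64 ± 0.15), CDC7 (0.63 ± 0.45) and TIMELESS (0.60 ± 0.13) passed, against 0.659% of all genes and 1.10% of genes below the median abundance. The lowest low versus bulk scores were -0.12 ± 0.24 for ORC4, -0.08 ± 0.16 for ORC5 and -0.03 ± 0.31 for POLD2.

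Against the same bulk library, guides in the high bin went both ways, with 30 of the 51 genes above 0 and a median of 0.03. CDC7 (-1.21 ± 1.59), GMNN (-0.89 ± 0.46) and PRIM2 (-0.73 ± 0.91) were the lowest, and POLD1 (0.47 ± 0.39), POLA1 (0.29 ± 0.35) and POLE (0.29 ± 0.46) the highest. None was called at 2-fold, since 1 guide of CDC7 lay above 0, while 0.319% of all genes passed toward high and 0.277% toward bulk. GMNN and PRIM2 passed 1.5-fold toward bulk, as did 1.06% of all genes and 1.70% of genes below the median abundance. As both comparisons use the bulk library, their values stand side by side here and were not related to each other.

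**Figure D3:**
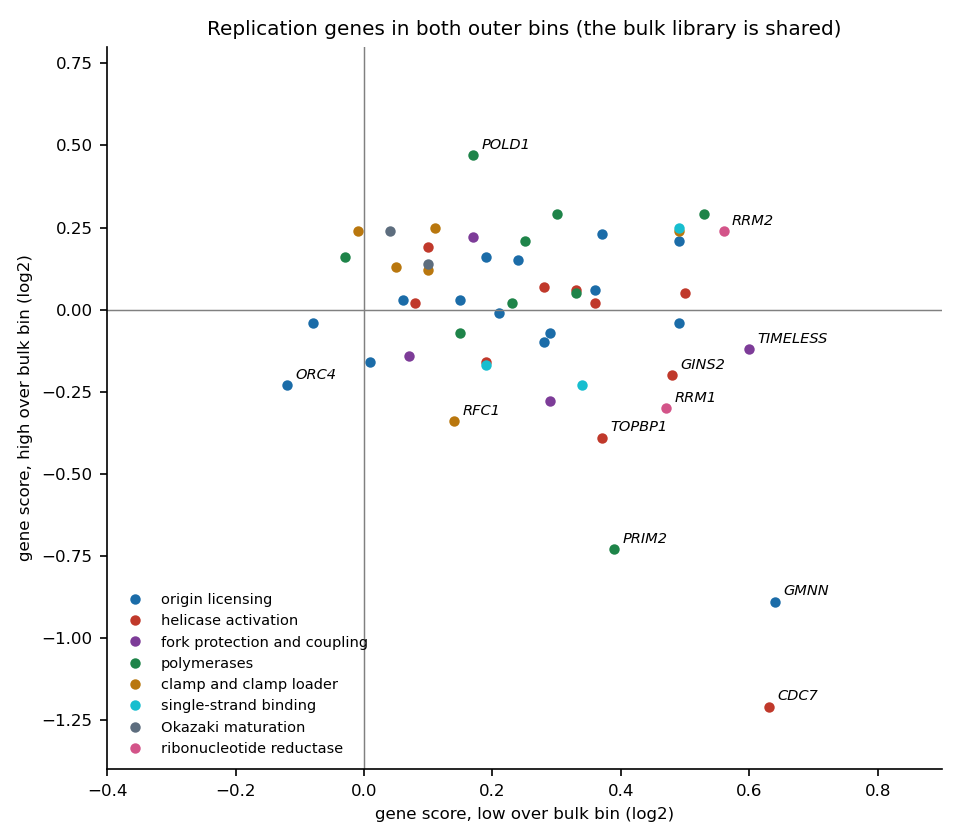
Gene scores of the 51 replication genes in low over bulk (horizontal, log2) and high over bulk (vertical, log2), coloured by step; both axes use the same bulk library. Most genes lie between 0 and 0.6 on the horizontal axis and near 0 on the vertical one, with CDC7, GMNN and PRIM2 low on the vertical axis (-1.21, -0.89 and -0.73).

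By step, the low versus bulk medians were 0.24 for licensing, 0.35 for helicase activation, 0.23 for fork protection, 0.25 for polymerases, 0.11 for the clamp and its loader, 0.34 for RPA, 0.07 for lagging strand maturation and 0.52 for the reductase. The high versus bulk medians in that order were -0.01, 0.02, -0.13, 0.16, 0.18, -0.17, 0.19 and -0.03. The helicase activation, polymerase, clamp and maturation medians were thus above 0 on both sides of bulk. Those of licensing, fork protection, RPA and the reductase were above bulk in low and below it in high. The high versus bulk medians of licensing, helicase activation and the reductase were close to 0 and changed sign in some alternatives. Among the polymerase, clamp, fork protection and RPA genes, some departed from their step. PRIM2 (-0.73), RFC1 (-0.34) and POLE2 (-0.07) were below bulk in high, and WDHD1 (0.22) and RPA3 (0.25) above it. The maturation median turned to -0.06 in low versus bulk and the fork protection median to 0.01 in high versus bulk when the guide furthest from 0 was left out of every gene.

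**Figure D4:**
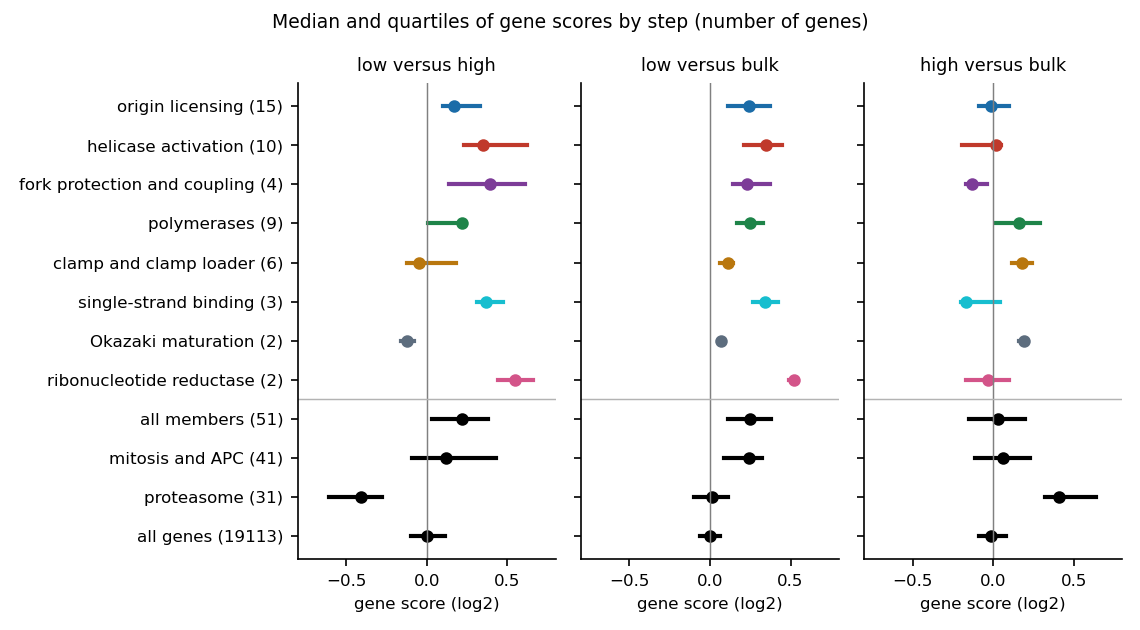
Median (dot) and quartiles (line) of gene scores in the 3 comparisons of bins for each step of replication, for all 51 members, for mitosis and proteasome genes and for all 19113 genes, with the number of genes in brackets. Helicase activation (0.35) lies above the clamp and its loader (-0.05) in low versus high, and proteasome genes (-0.41) lie on the other side of 0.

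At the level of single guides, 78 of the 203 replication guides (38.4%) lay above the central 95% of the 994 non-targeting guides in low versus high and 14 (6.90%) below it. Over all gene-targeting guides these shares were 12.2% and 13.6%, and over those below the median abundance 18.1% and 16.8%. Helicase activation guides lay above the control range in 19 of 40 cases and below it in 0, polymerase guides above in 11 and below in 4 of 36, and clamp and loader guides above in 4 and below in 5 of 24. In low versus bulk, 124 of the 203 guides (61.1%) lay above the control range of -0.21 to 0.17, compared with 15.2% of all gene-targeting guides and 21.3% of those of low abundance. Low versus bulk was thus displaced toward the low bin for most single guides. In high versus bulk, 44 guides (21.7%) lay above and 32 (15.8%) below the range of -0.33 to 0.23. The shares above and below were 15.4% and 9.32% of all gene-targeting guides. They were 18.9% and 14.6% of those below the median abundance, close to the replication guides. Control guides had more reads than replication guides, so this range is narrower than one matched for reads would be.

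Genes that work next to this machinery gave a mixed picture. Of 22 further replisome and fork genes, with a median low versus high score of 0.01, TOP2A alone was called, at 1.26 ± 0.56, and it encodes the topoisomerase that untangles replicated DNA. Of 12 S phase checkpoint genes (median 0.10), the kinase CHEK1 was called at 1.18 ± 0.99, and of 11 genes of replication-coupled chromatin assembly (median 0.21), CHAF1B, a subunit of the histone chaperone CAF-1, at 1.05 ± 0.24. The 20 genes of S phase entry and the 19 of nucleotide supply had medians of 0.00 and -0.06 and no called gene. Single genes of 3 neighbouring processes were thus called at 2-fold, where 1.03% of all genes and 1.66% of genes below the median abundance were called toward low. Most genes of those lists were not called.

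Mitosis and proteasome genes, whose guides also had few reads, differed in direction from each other in low versus high. The 41 genes of mitosis and the anaphase-promoting complex, of which 35 lay below the median abundance of all genes, had a median of 0.12 in low versus high and 0.24 in low versus bulk, the latter next to the 0.25 of the replication genes. In low versus high, 1 of these 41 genes was called, toward low. The 31 proteasome genes were all below the median abundance, and their medians were -0.41 in low versus high, 0.01 in low versus bulk and 0.41 in high versus bulk. The 374 olfactory receptor genes, which serve smell in sensory neurons, had a higher median abundance of 1235, and their score medians were -0.04, -0.02 and 0.02 in the same order.

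PCNA, on chromosome 20 from 5114953 to 5126626, and RPA3, on chromosome 7 from 7636518 to 7718607, also had 4 guides each in the TF-focused library, which was sorted in the same way. That screen had 21222650 counts in low, 38031483 in bulk and 9122855 in high over 8739 guides, and a further table held only a low bin, with 10026967 counts, and a bulk bin, with 30756868, which the labels do not call replicates. The genotype label of that pair names the genome-wide library, while the guides in it are the TF-focused ones. Log2 counts of the first and the further pair correlated at 0.98 in each bin, and the counts differed by 21.5 times (low) and 19.0 times (bulk) the variance that sampling alone would give. In low versus bulk both genes were called richer in bulk, PCNA at -1.18 ± 0.74 and RPA3 at -1.33 ± 1.38, where 1.68% of 1430 genes were called that way. Without the guide furthest from 0 the scores were -0.97 and -0.93, and both calls were lost. The genome-wide low versus bulk score of both genes was 0.49, with 4 of 4 guides above 0 in each. The direction thus differed between the libraries, a difference that was not tested.

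The guides of RPA3 in the TF-focused library fell into pairs. The first guide had 178 normalized counts in low and 1033 in bulk, and the second 151 and 901. The third had 1121 and 1322 and the fourth 2411 and 2448, and so were nearly level. Those of PCNA had 377 against 1353, 837 against 1411, 509 against 1758 and 1607 against 2047, lower in low throughout. In the further pair PCNA scored -1.13 ± 0.86 and was called, and RPA3 scored -1.36 ± 1.38 with 1 guide above 0 and was not called, against 0.909% of 1430 genes called richer in bulk. The 49 non-targeting guides were widely spread in these tables, with a central 95% of -1.69 to 1.42 in the first and -1.38 to 1.19 in the further pair. Of the single guides, only the first and second of RPA3, at -2.51 and -2.55, lay below every control guide, the lowest of which was at -1.88, and the same guides in the further pair were at -2.76 and -2.31 with the lowest control at -2.15.

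**Figure D5:**
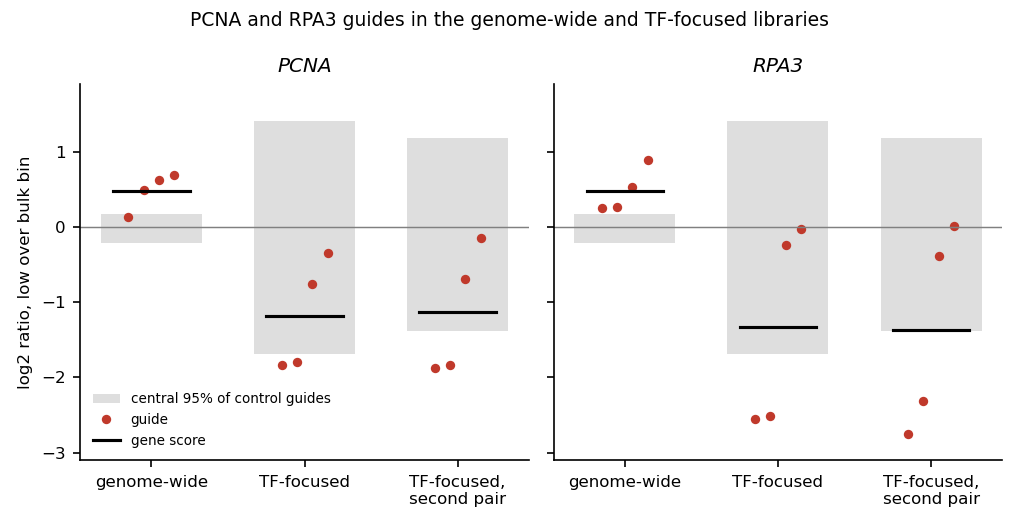
Log2 ratio of normalized counts in the low over the bulk bin for each guide (red dots) of PCNA and RPA3 in the genome-wide library, the TF-focused library and the further TF-focused pair, with the gene score (black line) and the central 95% of non-targeting guides (grey). All genome-wide guides lie above 0, and all TF-focused guides but 1 lie below it.

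In the high bin of the TF-focused screen, PCNA scored -0.56 ± 0.47 and RPA3 -0.67 ± 0.91 against bulk, and the low versus high scores were -0.60 ± 0.64 and -0.63 ± 0.53. Neither gene was called in these comparisons, and 1 of 4 PCNA guides and 2 of 4 RPA3 guides were above 0 in high versus bulk. By score in high versus bulk, PCNA ranked 18 and RPA3 7 from the lowest of 1430 genes. The lowest of the 49 control guides was at -0.73 in that comparison. Below it lay the first and second RPA3 guides, at -1.66 and -1.22, and the second PCNA guide, at -0.97. Other genes that most cells need for growth were not called in low versus bulk there, with scores of 0.83 ± 0.69 for the polymerase II subunit POLR2A, 0.42 ± 0.21 for the ribosomal protein RPL9, -0.48 ± 2.73 for the ribosomal protein RPL23A, 0.03 ± 0.62 for the transcription kinase CDK9 and -0.02 ± 0.87 for the cell cycle kinase CDK1. In the genome-wide low versus bulk comparison the same 5 genes were at 0.71, 0.58, 0.58, -0.04 and 0.51. The sample used as the high bin here is titled high but has a description that says bulk, and its title and table column were followed.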

How the data were processed

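The authors amplified guides from genomic DNA of each sorted bin in a 1-step PCR and deposited the raw, unscaled counts of every guide. MAGeCK and hg38 stand in the processing notes of the submitters, and the counting settings are not given in the sources used here. MAGeCK, which the study's methods name for scoring, was not used here. The members and the gene lists were chosen with earlier results of these data known.

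Libraries were scaled by median-ratio size factors over all guides. A guide needed a mean normalized count of at least 30, and 76980 of 77441 genome-wide guides had one. Guide log2 ratios used a pseudocount of 5, and the median ratio of guides with a gene target was set to 0. Genes needed at least 2 guides, and all genes of a table were scored. TF-focused gene names were read from guide names, because the deposited gene column ends a name at a hyphen. Ratio intervals are exact (Clopper-Pearson, 95%). The mean count per guide was 1168 to 1319 in the genome-wide and 1044 to 4352 in the TF-focused libraries.

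Genes named are the members called in any genome-wide comparison, the highest and lowest low versus high score of each step, the 3 highest and 3 lowest against bulk, members in the TF-focused tables, called genes of neighbouring replication lists, and SERPINB5 and KLF5. Further members are named to complete their complex, and POLR2A, RPL9, RPL23A, CDK9 and CDK1 were chosen after their values were seen. Alternatives covered scaling, centring, pseudocount, filter, gene summary, the strongest guide, threshold and sign rule. The scoring was tested on simulated data. Python 3.11.15, pandas 2.3.3, NumPy 2.4.6 and SciPy 1.17.1 were used.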

Additional observations from a re-analysis of the deposited data

Results flagged for a closer look

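The genome-wide and the TF-focused library gave scores of opposite sign for both replication genes that they share. In low versus bulk, every genome-wide guide of PCNA and of RPA3 was above 0, with scores of 0.49 in each gene, and every TF-focused guide of both genes was below 0, with scores of -1.18 for PCNA and -1.33 for RPA3. In the further TF-focused pair the scores were -1.13 for PCNA and -1.36 for RPA3, with 1 of the 4 RPA3 guides just above 0. Single non-targeting guides ran from -1.88 to 1.48 in the first TF-focused pair and from -2.15 to 1.34 in the further pair. The TF-focused scores of both genes lay within these ranges, but each score is a mean over 4 guides and the ranges are of single guides. Among the scores of 1430 genes, PCNA ranked 53 and RPA3 28 from the lowest in the first pair. In the further pair they ranked 38 and 18 from the lowest. In the first pair, the RPA3 guides at -0.24 and -0.03 were nearly level. Without the guide furthest from 0, the scores there were -0.97 for PCNA and -0.93 for RPA3, and both calls were lost. The difference between the libraries was not tested, since each bin of each table was 1 library.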

How the results depend on the processing

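Of the counts of called genes and the medians over the 51 replication genes, 106 of 111 alternative values stayed close to the reported ones and 5 moved. A count was close when equal to the reported one or within 1.5-fold of it. A median was close when it moved by less than the median SD over guides. That SD was 0.30 in low versus high, wider than the median of 0.22 there, so a median could reach 0 and still count as close. This tally did not score direction, and the ranges of the medians are given below. At 1.5-fold instead of 2-fold, the called genes rose from 3 to 7 toward low in low versus high, and from 0 to 3 toward low and 0 to 2 toward bulk in the comparisons with bulk. Against the mean of the normalized bulk and high counts, 1 gene, GMNN, was still called, at 1.01. Without the rule on guide signs, 1 gene, CDC7, was called richer in bulk than in high. PRIM2 was not called with a pseudocount of 20, with medians over guides, with summed counts or without its strongest guide, and its score ran from 0.67 to 1.17 over 13 alternatives, where GMNN ran from 1.01 to 1.62 and CDC7 from 0.99 to 2.24. The median over the 51 genes ran from 0.12 to 0.24 in low versus high, 0.18 to 0.27 in low versus bulk and 0.02 to 0.05 in high versus bulk. The polymerase median in low versus high ran from 0.07 (medians over guides) to 0.22. Step medians close to 0 could change sign, as the clamp and its loader did in low versus high against the mean of bulk and high (0.01), and the maturation genes without the strongest guide (0.07). The causes of these changes were not tested.

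For all genes, the 197 called richer in low than in high became 427 at 1.5-fold and 85 against the mean of bulk and high, and the 91 richer in high 261 and 17. Against bulk, 15 genes richer in low became 126 at 1.5-fold and 7 without the strongest guide. The 61 richer in high became 214 and 39, and the 53 richer in bulk than in high 202 and 22. The alternatives for the TF-focused tables and the background of genes below the median abundance were chosen after seeing the data, and all 24 values of PCNA and RPA3 stayed below 0 and within 1 SD over guides of those reported. The 2-fold calls did not all hold: without the strongest guide PCNA was at -0.97 and RPA3 at -0.93, and in the further pair PCNA was at -0.89, with -0.88 when centred on non-targeting guides. No paired analysis was possible because each genome-wide bin held 1 library and no label makes the further TF-focused pair a replicate, and for the same reason no replicate was left out. Few reads limit single guides, as in CDC7 with 1 read in high and RFC1, whose score went from 0.48 to 0.04 at a minimum mean count of 100.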
